A study of Mus musculus with 14 samples.

Results

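Complement genes other than those of C1q were followed in 3 populations sorted from mouse lung, before and after bleomycin injury. The study's authors name these populations stromal. The members were 9 genes, chosen by symbol: *C2*, *C3*, *C4b*, *Cfb*, *Cfp*, *Serping1*, *Cd55*, *C3ar1* and *C5ar1*. Of these, 8 had probes on the array annotation used here, 11 probes in all among 45281. *C3* is not analysed here. The *C3ar1* probe was detected on 0 of 14 arrays, which left 7 members among the 12444 genes tested.

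Complement is a cascade of plasma and cell surface proteins that marks particles for uptake, recruits leukocytes and forms a lytic pore. In the classical and lectin pathways, proteases cleave C4 and C2, and the fragments form an enzyme that cleaves C3. In the alternative pathway, factor B joins deposited C3b to form a second such enzyme, which properdin holds together. C1 inhibitor blocks the proteases that start the classical and lectin pathways, CD55 takes the C3-cleaving enzymes apart on a cell's own surface, and the small fragments C3a and C5a act on G protein-coupled receptors. Fibroblasts and macrophages are among the cells known to make complement components outside the liver.

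The cells came from triple transgenic *Foxd1-Cre;Rosa26-tdTomato;Coll-GFP* mice, and all groups carried the 3 transgenes. Peri cells were of the Foxd1 lineage and GFP-, PeriFibro cells were of the Foxd1 lineage and GFP+, and Fibro cells were GFP+ and not of that lineage. The tdTomato label records that the *Foxd1* promoter was once active in a cell's ancestry, and GFP reports a collagen promoter, so neither is a direct sign of a cell type. Uninjured mice received saline into the trachea and gave 2 arrays of each population, and mice given bleomycin at 0.8 U/kg, a drug that injures the alveolar lining, gave 2 Peri, 3 PeriFibro and 3 Fibro arrays at day 7. All 8 bleomycin arrays were labelled male and all 6 uninjured arrays female, so injury and sex cannot be told apart. The labels give no strain and no age, and do not say that the arrays came from separate mice, so p-values measure the spread between these arrays, which may be technical.

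Each Illumina MouseWG-6 v2.0 array gave 1 intensity a probe, and 39.4% to 44.4% of probes were detected on each (detection p under 0.05 against negative controls). Levels below are background-corrected, quantile-normalised log2 intensities. A difference between groups was called where limma's adjusted p was under 0.05 with a change of 2-fold or more. 3 arrays stood apart on the second principal component, which held 18.4% of the variance: Fibro uninjured replicate 2 (score 66.7), Fibro bleomycin replicate 2 (71.4) and PeriFibro bleomycin replicate 3 (33.5), with lower scores on the other arrays. Results that change without them are given so, some only as counts of members called.

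The populations also differed in markers of other cells. In uninjured lung all 8 neutrophil markers were called higher in Peri cells when set against PeriFibro cells, with summed intensities of 49328 to 74513 against 1905 to 2005, and Fibro cells lay between, at 15066 to 18817. The same held for all 8 pan-leukocyte markers, with sums of 71130 to 71558 against 9418 to 14913, and of 30909 to 37105 in Fibro cells. *Ptprc*, which encodes the leukocyte antigen CD45, was detected on 9 arrays, none of them PeriFibro. Of 8 endothelial markers, 7 were lower in Peri cells than in PeriFibro, with sums of 2473 to 3917 against 67033 to 75523. Of 7 pericyte markers tested, 0 were called higher and 4 lower in Peri cells than in PeriFibro, and the summed level was 230 to 280 against 517 to 1584. Of 8 fibroblast markers, 1 was called higher and 5 lower in uninjured Peri cells than in PeriFibro, and *Col1a1*, the gene of a fibrillar collagen chain, was not detected on the 2 Peri arrays of uninjured lung. These markers therefore moved with the populations whose complement genes are compared, and their part in the results was not tested. In bulk samples, fewer cells of a type and less RNA per cell cannot be told apart.

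**Figure D1:**
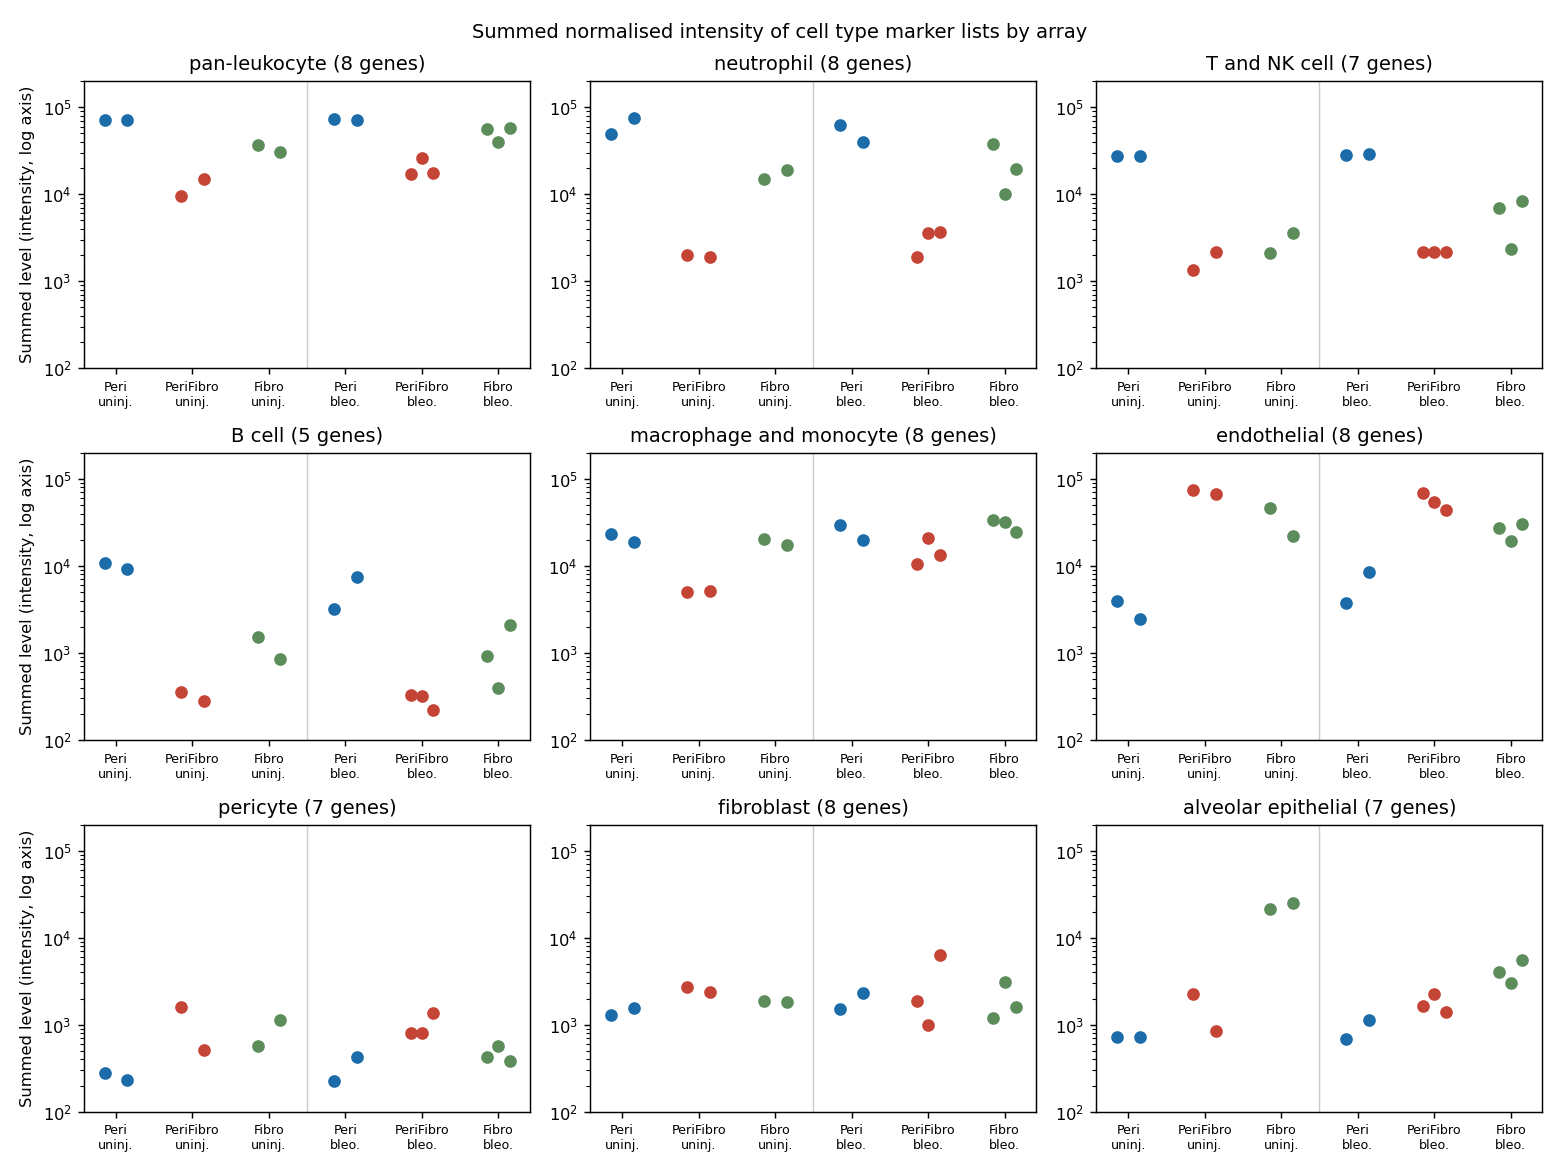
Summed normalised intensity (log axis) of 9 cell type marker lists, 1 point an array, in the 6 groups of Peri (blue), PeriFibro (red) and Fibro (green) cells, uninjured left of the line and bleomycin right. In uninjured lung the neutrophil and pan-leukocyte lists were highest on the Peri arrays and the endothelial list on the PeriFibro arrays, while the macrophage and monocyte list reached its top on a Fibro bleomycin array (34209).

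*C2* encodes the serine protease of the classical and lectin pathway enzyme that cleaves C3. In uninjured lung its log2 level was 4.70 and 5.48 on the 2 Peri arrays, 7.25 and 7.86 on the PeriFibro arrays and 7.85 and 6.43 on the Fibro arrays. The first Peri array was below detection, and both Peri arrays lay under every other array of the series. After bleomycin the levels were 6.12 and 7.38 in Peri, 7.32, 7.18 and 8.07 in PeriFibro and 6.93, 7.94 and 7.10 in Fibro cells. The ranges of the 3 populations overlapped there.

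Before injury *C2* was lower in Peri cells than in PeriFibro by 5.51-fold (log2 -2.46 ± 0.57 SE, adjusted p = 0.00662) and lower than in Fibro cells by 4.13-fold (log2 -2.05 ± 0.57, adjusted p = 0.0224). PeriFibro and Fibro cells were neighbours in this order and did not differ by the test (log2 0.42, 95% interval -0.83 to 1.67). Without Peri uninjured replicate 1 neither call was made (adjusted p = 0.0626 and 0.144). The call against PeriFibro was also lost without PeriFibro uninjured replicate 2 (adjusted p = 0.0562) and in the authors' normalised values (log2 -0.57, 0.0586), and the call against Fibro without Fibro uninjured replicate 1 (0.136), in the authors' values (log2 -0.45, 0.134), with no background correction (log2 -0.90, 0.0949), with an offset of 50 (log2 -1.37, 0.0586) and with only the compared groups in the fit (0.0642).

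*C4b* encodes C4, whose larger fragment binds target surfaces and holds C2. By its bright probe, the level in uninjured lung was 5.78 and 6.72 in Peri, 7.45 and 8.52 in PeriFibro and 8.62 and 5.54 in Fibro cells. The 2 Fibro arrays thus held the highest and the lowest value of the uninjured set. After bleomycin it was 7.77 and 8.36 in Peri, 7.92, 7.37 and 8.23 in PeriFibro and 8.41, 8.78 and 8.40 in Fibro cells, where the Fibro arrays lay above all others. *C4b* passed the test in 0 of the 9 comparisons. The nearest was Peri against PeriFibro cells of uninjured lung (log2 -1.73 ± 0.77, adjusted p = 0.127), which was called with only those groups in the fit (adjusted p = 0.0221). It also passed without either Fibro uninjured array and without the 3 arrays that stood apart. Those fits leave 1 Fibro uninjured array, a group that this contrast does not hold.

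The 3 *C4b* probes did not behave alike. The other 2 lay near background on every array, at log2 levels of 4.29 to 5.24. The gene has a near-identical neighbour, *C4a*, and 2 of the 3 *C4a* probes followed the bright *C4b* probe over the 14 arrays (Pearson's r = 0.971 and 0.940, a description over arrays that share groups). Whether these probes hybridise to both transcripts was not tested, so the C4 values cannot be assigned to *C4b* alone. The brighter *C4a* probe was called lower in uninjured Peri cells than in PeriFibro (log2 -2.12 ± 0.68, adjusted p = 0.0358), a difference of the same sign as that of *C4b*.

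**Figure D2:**
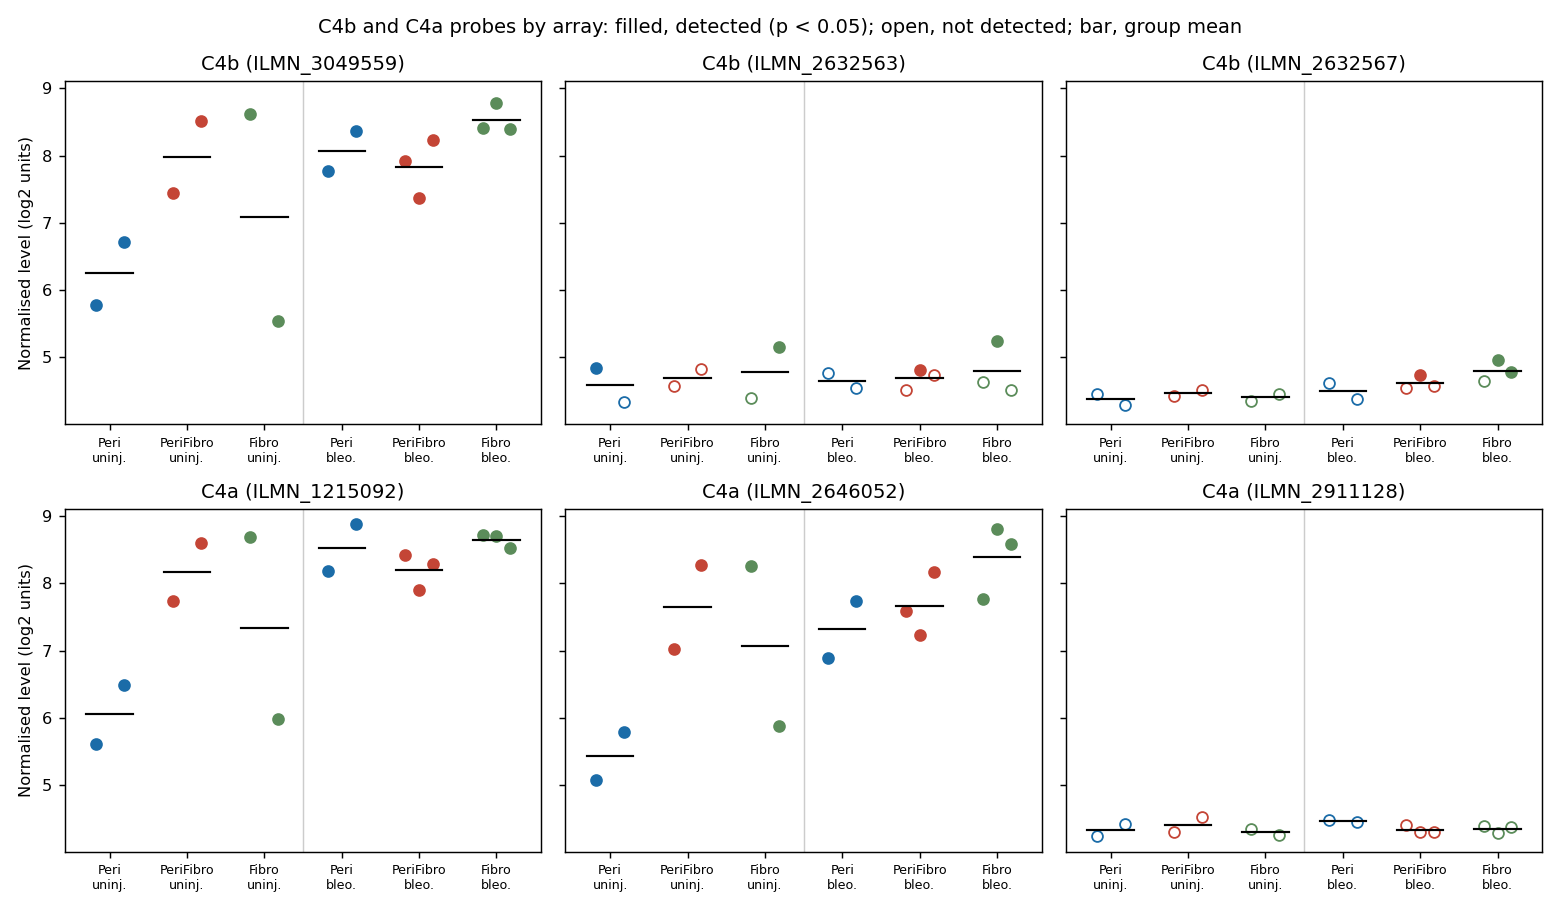
Normalised log2 level of the 3 *C4b* probes (top) and 3 *C4a* probes (bottom), 1 point an array, filled where detected, with group means as bars. ILMN_3049559 of *C4b* and ILMN_1215092 and ILMN_2646052 of *C4a* shared a pattern, with Peri uninjured arrays low and Fibro uninjured arrays far apart, and the other 3 probes stayed near background.

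*Cfb* encodes factor B, the protease of the alternative pathway enzyme. Its level in uninjured lung was 5.35 and 5.39 in Peri, 4.57 and 6.30 in PeriFibro and 5.62 and 5.82 in Fibro cells, and the lowest of these was below detection. After bleomycin it was 6.23 and 6.37 in Peri, 6.04, 6.10 and 7.13 in PeriFibro and 8.58, 6.44 and 7.68 in Fibro cells. The injured Fibro cells were not called different from Peri (log2 -1.26 ± 0.60 for Peri minus Fibro, adjusted p = 0.231). Nor were they from PeriFibro (log2 -1.14 ± 0.54 for PeriFibro minus Fibro, adjusted p = 0.253). In Fibro cells the difference between injured and uninjured lung was 3.60-fold (log2 1.85 ± 0.60, 95% interval 0.53 to 3.17) and was not called (adjusted p = 0.189). Without Fibro bleomycin replicate 2, the lowest of the injured arrays, it was 2.41 on the log2 scale with an adjusted p of 0.041.

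*Cfp* encodes properdin, the stabiliser of the alternative pathway enzyme and a product mainly of myeloid cells. Its level in uninjured lung was 11.98 on both Peri arrays, 10.31 and 11.31 in PeriFibro and 11.97 and 11.35 in Fibro cells. After bleomycin it was 12.10 and 11.97 in Peri, 10.66, 11.53 and 10.80 in PeriFibro and 12.64, 12.48 and 12.75 in Fibro cells. PeriFibro arrays lay below those of the other populations in the uninjured set, and after bleomycin the order was PeriFibro, Peri and then Fibro, with no overlap.

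Peri cells held 2.25-fold more *Cfp* signal than PeriFibro cells before injury (log2 1.17 ± 0.37, adjusted p = 0.0341) and 2.05-fold more after it (log2 1.04 ± 0.34, adjusted p = 0.0431). At day 7 of bleomycin Fibro cells exceeded PeriFibro cells by 3.08-fold (log2 -1.62 ± 0.30 for PeriFibro minus Fibro, adjusted p = 0.0116), while Peri and Fibro cells did not differ by the test (log2 -0.59, 95% interval -1.32 to 0.15). Both calls against Peri cells were lost with arrays scaled to a common median (log2 0.57, adjusted p = 0.441 before injury and log2 0.71, adjusted p = 0.278 after it), with no detection filter (0.051 and 0.065) and with the replicate block (0.0524 and 0.0863), the first also without PeriFibro uninjured replicate 1 (log2 0.68, adjusted p = 0.312) or either Peri uninjured array (0.114 and 0.131). The second was lost without any 1 of 8 arrays (all 4 Peri arrays, PeriFibro bleomycin replicates 1 and 3 and Fibro bleomycin replicates 1 and 3, with a largest adjusted p of 0.223) with only the compared groups in the fit (0.0685) and without the 3 arrays that stood apart (0.0764), and the Fibro call without PeriFibro bleomycin replicate 1 (0.055) and with median scaling (log2 -1.49, 0.0654). Along with *Cfp*, 4 of 8 neutrophil markers and 5 of 8 pan-leukocyte markers were lower in injured PeriFibro cells than in Fibro, with pan-leukocyte sums of 16852 to 26137 against 39693 to 57130, and their part in the difference was not tested.

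*Serping1* encodes C1 inhibitor, the serpin that blocks C1r, C1s and the lectin pathway proteases. Its level in uninjured lung was 6.57 and 6.96 in Peri, 9.78 and 10.00 in PeriFibro and 9.14 and 8.68 in Fibro cells, so that the order was Peri, Fibro and then PeriFibro with no overlap. After bleomycin it was 8.16 and 10.25 in Peri, 10.39, 10.12 and 10.36 in PeriFibro and 9.19, 9.38 and 9.25 in Fibro cells. The injured Peri arrays spread on either side of the Fibro arrays, and 1 of them reached the PeriFibro range. A second *Serping1* probe gave the same picture (r = 0.997 over 14 arrays).

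Before injury *Serping1* was 8.70-fold below the PeriFibro level in Peri cells (log2 -3.12 ± 0.50, adjusted p = 0.000577) and 4.42-fold below the Fibro level (log2 -2.14 ± 0.50, adjusted p = 0.00892). The neighbours in this order, Fibro and PeriFibro cells, differed by 1.97-fold, which did not pass the test (log2 0.98 ± 0.50, adjusted p = 0.357). After bleomycin 0 of the 3 pairs of populations were called: log2 -1.08 for Peri minus PeriFibro (adjusted p = 0.113), -0.07 for Peri minus Fibro (0.949) and 1.02 for PeriFibro minus Fibro (0.17). The call against PeriFibro was made under every alternative and with each array left out, while that against Fibro was lost without Peri uninjured replicate 1 (log2 -1.94, adjusted p = 0.0628) and in the authors' normalised values (log2 -0.90, 0.0911). Among injured cells the difference of Peri from PeriFibro rested on which Peri array was kept. It was log2 -2.14 without replicate 2 and -0.04 without replicate 1, each leaving 1 Peri array with no spread of its own. PeriFibro against Fibro passed the threshold without either injured Peri array, though that contrast holds no Peri array. Its log2 value stayed between 0.97 and 1.10 with any array left out.

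*Cd55* encodes decay-accelerating factor, a surface protein that speeds the decay of the C3-cleaving enzymes on host cells. It had the opposite order to *Serping1*: in uninjured lung its level was 9.28 and 9.41 in Peri, 5.11 and 5.42 in PeriFibro and 6.01 and 6.15 in Fibro cells. After bleomycin it was 7.62 and 8.31 in Peri, 5.49, 5.18 and 6.26 in PeriFibro and 5.57, 5.16 and 6.85 in Fibro cells. The 4 Peri arrays lay above all 10 others, and the PeriFibro and Fibro ranges overlapped after injury.

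In uninjured lung Peri cells exceeded PeriFibro cells in *Cd55* by 16.9-fold (log2 4.08 ± 0.50, adjusted p = 9.6e-05) and Fibro cells by 9.61-fold (log2 3.26 ± 0.50, adjusted p = 0.000753). At day 7 of bleomycin the differences were 4.99-fold (log2 2.32 ± 0.46, adjusted p = 0.00293) and 4.30-fold (log2 2.10 ± 0.46, adjusted p = 0.0181). PeriFibro and Fibro cells did not differ by the test before injury (log2 -0.82, 95% interval -1.91 to 0.28) or after it (log2 -0.22, interval -1.11 to 0.68). The call against injured Fibro cells was lost without Peri bleomycin replicate 1 or replicate 2, which leaves 1 array in that group. It was also lost with median scaling (adjusted p = 0.0654) and with only the compared groups in the fit (0.123). In the authors' normalised values the injured differences were under 2-fold (log2 0.65 and 0.60), on a scale where the uninjured ones were smaller too (log2 1.46 and 1.33). After bleomycin all 7 T and NK cell markers were higher in Peri cells against PeriFibro and 5 of 7 against Fibro. The counts were 8 of 8 and 1 of 8 for neutrophil markers and 4 of 5 and 3 of 5 for B cell markers. The part of these markers in the *Cd55* difference was not tested.

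Promoter sequence was at hand in the RefSeq table (GRCm38.p6) for 5 members, from 250 bases before to 50 after the gene start. Those of *Cd55* and *Cfp* are shown because these genes had the most called comparisons among the 5. The *Cd55* promoter, at chr1:130462695-130462994 on the minus strand, has its 2 GC boxes in capitals (GGGCGG, here on the opposite strand, at positions -77 and -7 from the start).
*Cd55*: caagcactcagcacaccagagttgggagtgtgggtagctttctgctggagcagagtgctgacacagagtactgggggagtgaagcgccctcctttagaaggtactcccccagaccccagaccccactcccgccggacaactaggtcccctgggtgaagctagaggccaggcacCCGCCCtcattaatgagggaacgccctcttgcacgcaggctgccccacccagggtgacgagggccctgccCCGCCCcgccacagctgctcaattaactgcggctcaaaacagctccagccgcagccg
GGGCGG was found on either strand in 35.7% of 32851 mouse promoters of this length. The *Cfp* promoter, at chrX:20931506-20931805 on the minus strand, has no capitals because no searched motif was found in it.
*Cfp*: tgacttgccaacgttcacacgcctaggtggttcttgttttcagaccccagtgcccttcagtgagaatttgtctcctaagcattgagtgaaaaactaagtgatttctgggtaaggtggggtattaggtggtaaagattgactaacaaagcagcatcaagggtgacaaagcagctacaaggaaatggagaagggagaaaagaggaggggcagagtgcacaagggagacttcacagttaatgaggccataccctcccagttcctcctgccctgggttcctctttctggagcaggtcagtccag
Both strands of these promoters were also searched for TATAAA (in 13.6% of all promoters), for CCAAT (37.4%) and for TTCNNNGAA (8.30%), and no 2 of the matches shown overlap. A match describes these letters and is not evidence of a bound factor.

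The receptors gave little signal. *C5ar1*, the receptor of C5a on neutrophils and macrophages, was detected on 3 of 14 arrays: Peri uninjured replicate 2 (5.16), Peri bleomycin replicate 1 (6.18) and Fibro bleomycin replicate 1 (5.39). Its other 11 arrays lay between 4.22 and 4.74. It passed the test in 0 of 9 comparisons, and where a group was undetected throughout no difference larger than 1.43-fold could be bounded. *C3ar1*, the receptor of C3a, lay between 4.24 and 4.41 on all arrays. At this signal neither receptor's absence nor its change could be shown.

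**Figure D3:**
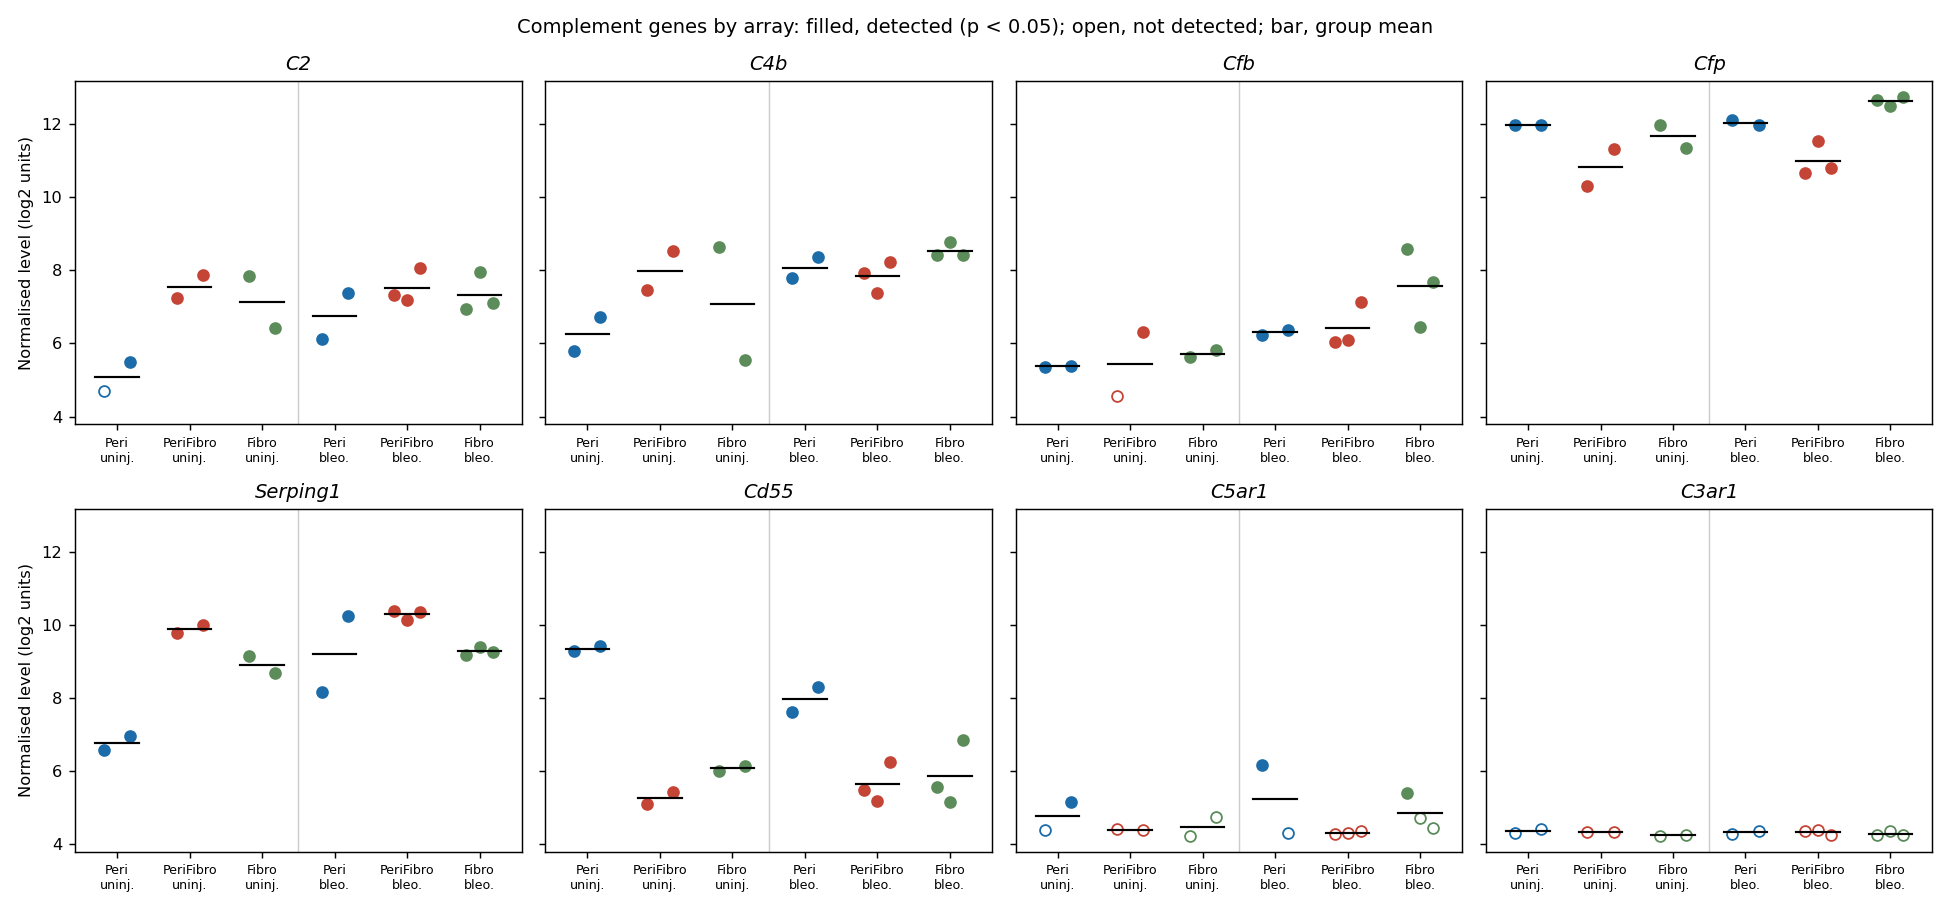
Normalised log2 level of 8 complement genes on each array, filled where detected and open where not, with group means as bars. *Cd55* was highest on the 4 Peri arrays, *Serping1* and *C2* were lowest on the Peri uninjured arrays, and *C3ar1* was open throughout.

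Counted together, 4 of the 7 members tested were called between Peri and PeriFibro cells of uninjured lung, *Cd55* and *Cfp* higher in Peri and *Serping1* and *C2* lower, where 24.8% of all genes were called. Between Peri and Fibro cells 3 of 7 were called, against 21.7% of all genes. Between PeriFibro and Fibro cells it was 0 of 7 against 2.35%, and at an unadjusted p under 0.05 it was 1 of 7, *Cfp* (log2 -0.85), against 15.9%. After bleomycin the counts were 2 of 7 for Peri and PeriFibro cells (20.9% of all genes), 1 of 7 for Peri and Fibro cells (7.53%) and 1 of 7 for PeriFibro and Fibro cells (6.09%). The median log2 difference over the 7 members between uninjured Peri and PeriFibro cells was -0.06, beside -0.05 over all genes, with members on either side. Comparisons of 1 population with each of the others share its arrays.

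**Figure D4:**
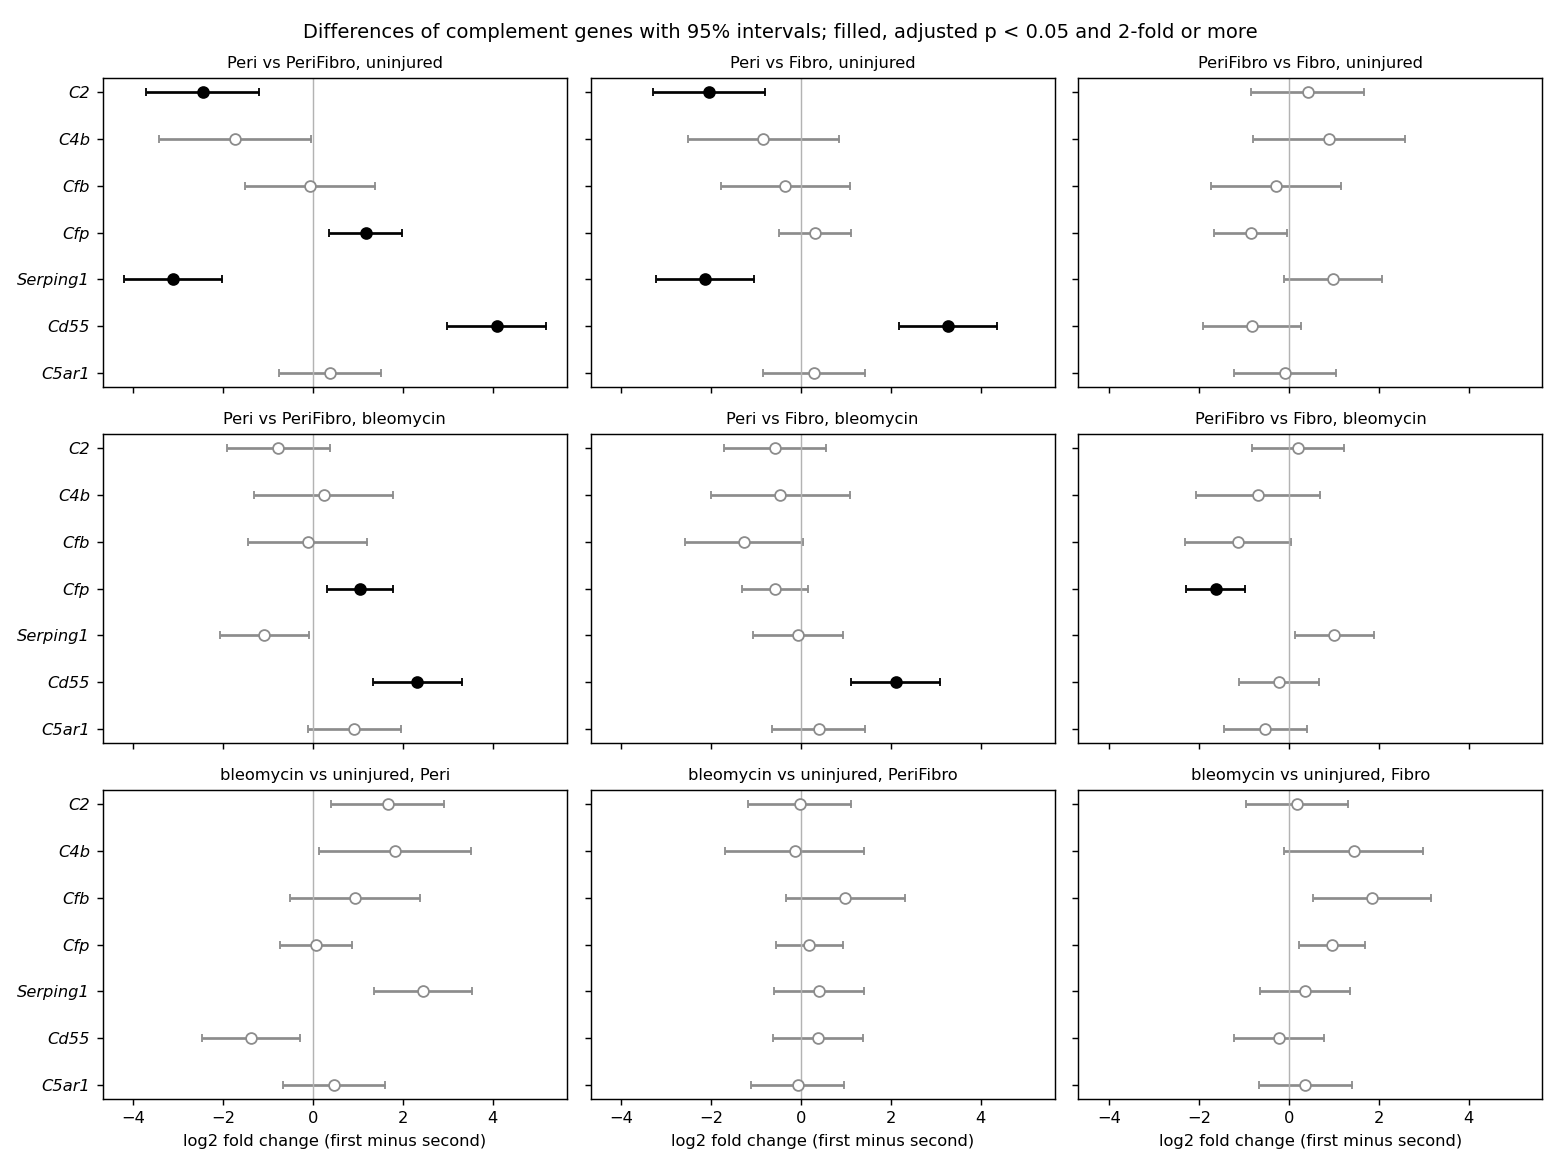
Log2 fold change (first group minus second) of 7 complement genes with 95% intervals in the 9 comparisons, filled where called. Filled points stand in the 5 comparisons between populations that made a call and in none of the 3 bleomycin responses in the bottom row.

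The response to bleomycin sets injured male against uninjured female arrays within a population, so it is not of injury alone. It was called for 0 of 7 members in each population by limma. In Peri cells 0.595% of all genes were called, and 4 of 7 members had an unadjusted p under 0.05, against 7.01% of all genes. The largest was *Serping1*, 5.43-fold higher after bleomycin (log2 2.44 ± 0.50, 95% interval 1.35 to 3.53, adjusted p = 0.0627). *C4b* was 3.53-fold higher (log2 1.82 ± 0.77, adjusted p = 0.635) and *C2* 3.15-fold higher (log2 1.66 ± 0.57, adjusted p = 0.429). *Cd55* was 2.61-fold lower (log2 -1.38 ± 0.50, adjusted p = 0.476). B cell sums were lower too, at 9264 to 10899 in uninjured and 3201 to 7432 in injured Peri cells. The median log2 difference was -0.68 over B cell, 0.12 over T and NK cell and -0.39 over neutrophil markers, with 0 called in each. The part of these lists in the *Cd55* difference was not tested. With 1 injured Peri array left in the group, the *Serping1* difference was log2 3.49 without replicate 1, the lower of the pair, and 1.39 without replicate 2. Of 8 fibroblast markers, 2 to 4 were detected on the Peri uninjured arrays and 6 to 8 on the Peri bleomycin arrays, *Col1a1* on 0 and 2. Between these groups 0 of 8 were called, with a median log2 difference of 1.02. The summed levels overlapped, at 1288 to 1566 in uninjured and 1516 to 2345 in injured Peri cells. The part of these markers in the result was not tested.

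In PeriFibro cells 0 of 7 members were called and 0 had an unadjusted p under 0.05, against 0.129% and 6.56% of all genes. The largest difference was that of *Cfb* (log2 0.99, 95% interval -0.33 to 2.31). In Fibro cells 1.60% of all genes were called. At an unadjusted p under 0.05, where 12.6% of genes lay, were *Cfb*, described above, and *Cfp*, 1.95-fold higher after bleomycin (log2 0.96 ± 0.34, adjusted p = 0.224). Macrophage and monocyte markers in Fibro cells moved with *Cfp*. Their summed level was 17468 to 20412 in uninjured and 24713 to 34209 in injured lung (0 of 8 called, median log2 difference 1.48). Pan-leukocyte markers did so as well, at 30909 to 37105 before and 39693 to 57130 after bleomycin (0 of 8 called, median 0.86). Neutrophil sums in Fibro cells overlapped, at 15066 to 18817 before and 9922 to 37519 after. In PeriFibro cells the macrophage and monocyte sums rose too, from 5019 to 5143 before injury to 10519 to 20719 after it. There 0 of 8 were called (median log2 difference 1.29), while *Cfp* differed by only log2 0.19. The part of these markers in the *Cfp* difference was not tested.

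Whether the response differed between populations was tested directly. For Peri against PeriFibro cells 0% of all genes were called and 5.24% had an unadjusted p under 0.05. Among the members those were *Serping1* (log2 2.04 ± 0.67, adjusted p = 0.709) and *Cd55* (log2 -1.76 ± 0.68, adjusted p = 0.88). For Peri against Fibro cells 0 of 7 members and 0.482% of genes were called, and *Serping1* was the 1 member with an unadjusted p under 0.05 (log2 2.08 ± 0.67, adjusted p = 0.289), against 9.25% of genes. For PeriFibro against Fibro cells it was 0 of 7 by either rule, beside 0.129% and 3.35%. The 2 contrasts with Peri cells share the Peri arrays.

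Of 47 other complement genes listed, 29 were tested. Between Peri and PeriFibro cells of uninjured lung 2 were higher in Peri and 7 lower, where 24.8% of all genes were called, with a median log2 difference of -0.23 beside -0.05 over all genes. *Cd93*, a receptor abundant on endothelium, was lower (log2 -4.05 ± 0.56, adjusted p = 0.00023), as were *Fcna*, a lectin that starts the lectin pathway (at least 12.6-fold, adjusted p = 0.0279), and *Masp1*, a protease that acts with such lectins (log2 -3.11 ± 0.61, adjusted p = 0.00229). *Itgb2*, the beta chain of the leukocyte complement receptors CR3 and CR4, was higher (log2 2.63 ± 0.43, adjusted p = 0.000703). A fold written as at least N was measured from the background floor, as both uninjured Peri arrays were undetected.

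Between uninjured Peri and Fibro cells 2 of the 29 were higher in Peri and 5 lower, where 21.7% of all genes were called. *Hc*, which encodes C5, led these (log2 -4.41 ± 0.49, adjusted p = 0.000135), with levels of 4.38 to 5.13 in Peri and 8.51 to 9.82 in Fibro cells, followed by *C6* of the lytic pore (at least 5.61-fold, adjusted p = 0.00431) and *Cd93* (log2 -2.83 ± 0.56, adjusted p = 0.00369). Between PeriFibro and Fibro cells 1 of 29 was called, *Hc*, lower in PeriFibro (log2 -3.90 ± 0.49, adjusted p = 0.0017), where 2.35% of all genes were called. Alveolar epithelial markers moved with *Hc* here as well: 7 of 7 were lower in uninjured Peri than in Fibro cells (median log2 -5.31) and 7 of 7 lower in PeriFibro (median -4.16), with sums of 725 to 732 in Peri and 845 to 2247 in PeriFibro cells. In Fibro cells *Hc* was also the 1 of 29 called in the bleomycin response, where 1.60% of all genes were called. The change was to levels of 4.82 to 5.52 (log2 -4.02 ± 0.45, adjusted p = 0.00108). These markers moved with the change too, with sums of 21487 to 24985 in uninjured and 3051 to 5545 in injured Fibro cells, and 5 of 7 lower after bleomycin, and their part in the *Hc* differences was not tested.

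In the injured lung 2 of the 29 were higher and 4 lower in Peri cells than in PeriFibro, where 20.9% of all genes were called. Among the 6 were *Cd93* (log2 -3.06 ± 0.51, adjusted p = 0.00109), *Masp1* (log2 -2.51 ± 0.56, adjusted p = 0.00613), *Vtn*, the gene of the pore inhibitor vitronectin (log2 -1.75 ± 0.50, adjusted p = 0.0262), and *Itgb2* (log2 1.69 ± 0.39, adjusted p = 0.00821). After bleomycin 0 of 29 were called between Peri and Fibro cells (7.53% of all genes) and between PeriFibro and Fibro cells (6.09%). The bleomycin response was called for 0 of 29 in Peri cells (0.595% of all genes) and in PeriFibro cells (0.129%). In the difference of responses, Peri minus Fibro, 1 of 29 was called, *Hc*, with a positive sign, where 0.482% of all genes were called. For Peri minus PeriFibro it was 0 of 29 (0%), and for PeriFibro minus Fibro 0 of 29 (0.129%). The *Hc* call holds the same fall in Fibro cells as given above. In Peri cells *Hc* lay at 4.38 to 5.13 before and 4.37 to 4.83 after bleomycin, detected on 1 of 2 arrays each time.

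The genes whose level followed each member most closely over the 14 arrays, out of 12437, are given as a description, since the arrays share groups. For *Serping1* these were *Mmp2* (r = 0.962), *Bgn* (0.961) and *Pcolce* (0.959), and for *C2* they were *Cygb* (0.928), *Vcam1* (0.925) and *Gpc3* (0.909). For *Cd55* they were *Tm4sf4* (0.973), *Tmem108* (0.965) and *Cma1* (0.961), and for *Cfp* they were *H2-DMa* (0.933), *Cd86* (0.932) and *Sh3bgrl3* (0.930). For *Cfb* the nearest was *Ctsb* (0.920), for *C5ar1* it was *Sct* (0.901), and for *C4b* it was *C4a*, as given above. Among the members themselves *C2* and *Serping1* were the closest pair (r = 0.894) and *C2* and *Cd55* the most opposed (r = -0.754).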

How the data were processed

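RNA of 14 sorted lung samples was measured on Illumina MouseWG-6 v2.0 BeadChips. The authors deposited an unnormalised signal intensity for each of 45281 probes and array, with a detection p-value that places it among the negative control probes. Their deposited log2 values were variance-stabilised and quantile-normalised with lumi (version not given in the sources used here) and served as an alternative. The study's methods state that outlier samples were removed, but the BeadChips they name hold fewer samples than the 14 arrays here, so whether those are among the 14 is not known.

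Here limma 3.58.1 (R 4.3.3) corrected background and quantile-normalised the intensities by its neqc function (offset 16, log2). Probes with detection p under 0.05 on at least 2 arrays and 1 gene symbol were kept, 20162 in all (34885 probes carry 1 symbol, 18 several and 10378 none, by the platform annotation). The kept probe with the highest mean stood for its gene. All 6 groups entered 1 model (lmFit, eBayes, 8 residual degrees of freedom, 3.43 prior) with 9 comparisons and 3 differences of responses. P-values were two-sided and adjusted by Benjamini-Hochberg over 12444 genes. The test was checked on simulated data. Errors are standard errors of the fit. Where all arrays of the dimmer group were undetected, the fold was measured from the lowest signal among detected probes of each array, or the probe's own if higher.

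The members and lists were chosen with earlier results of these data known. All members are named, with at most 4 called genes a comparison from the other complement genes and the nearest 3 genes by correlation. Between populations in the same state, same-numbered replicates deviated together at r = -0.410 to 0.543. Between injured and uninjured Fibro arrays, which differ in sex and cannot be pairs, r was 0.611 and 0.665. With so few arrays these values do not decide whether the numbers mark pairs, and the numbers were not taken as pairs. The slides could not be told from the labels. Alternatives included the authors' values, no background correction, an offset of 50, median scaling, other detection filters and probe summaries, only the compared groups in the fit, a replicate block and leaving out each array. With 2 or 3 arrays a group, the number of arrays limits the precision.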

Additional observations from a re-analysis of the deposited data

How the results depend on the processing

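The member differences followed here were the 21 with an unadjusted p under 0.05 in the main fit. That choice makes a reversal unlikely. Calls gained by other member differences are not counted among these, and their members are not named below. Of their 550 log2 fold changes under the alternatives and with each array left out, 502 kept their direction and side of the threshold. The call was lost in 38 and gained in 10, and 0 reversed. *Cd55* and *Serping1* between uninjured Peri and PeriFibro cells kept their calls throughout, with log2 values of 1.46 to 4.24 and -3.63 to -1.57. For calls that did not, the cause was not tested, except that a lone array left in a group is assumed to vary like the other groups. With the authors' normalised values fewer of all genes met the same rule, 1254 in place of 3084 between uninjured Peri and PeriFibro cells. The members called with those values were 1 of 7 between uninjured Peri and Fibro cells, 1 between injured Peri and PeriFibro cells and 0 between injured Peri and Fibro cells. With arrays scaled to a common median, under which the median log2 difference of all genes was -0.30 in place of -0.05 between uninjured Peri and PeriFibro cells and 0.41 in place of 0.03 in the Peri response, they were 1, 0 and 0 for the injured pairs Peri and PeriFibro, Peri and Fibro, and PeriFibro and Fibro. This scaling also changed the split of all called genes between uninjured Peri and PeriFibro cells from 1271 higher and 1813 lower to 668 higher of 2333, and between uninjured Peri and Fibro cells from 1105 and 1598 to 319 higher of 1416. Between injured Peri and PeriFibro cells the count was 1 with no detection filter (8 members), with only the compared groups and with the replicate block. Between injured Peri and Fibro cells it was 0 with only the compared groups. Chosen after seeing the data, leaving out the 3 arrays that stood apart gave 1 for injured Peri and PeriFibro cells, 2 for injured Peri and Fibro cells and 2 for injured PeriFibro and Fibro cells. At an unadjusted p under 0.05 with 2-fold, the counts were 2 for injured PeriFibro and Fibro cells, 4 for the Peri response, 1 for the Fibro response, and 2 and 1 for the difference of the Peri response from those of PeriFibro and Fibro cells. A trended, robust variance called 1 member in the Peri response, *Serping1* (adjusted p = 0.047).

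With each array left out in turn, the members called ranged from 2 to 5 for uninjured Peri and PeriFibro cells, 1 to 4 for uninjured Peri and Fibro cells, 0 to 1 for uninjured PeriFibro and Fibro cells, 1 to 3 for injured Peri and PeriFibro cells, 0 to 1 for injured Peri and Fibro cells and 0 to 2 for injured PeriFibro and Fibro cells. They ranged from 0 to 1 for the Peri response, 0 to 1 for the Fibro response, and 0 to 1 for the difference of the Peri response from that of either other population. The replicate block ended the *Cfp* calls of Peri against PeriFibro cells (adjusted p = 0.0524 before injury and 0.0863 after it), moved no other count by over 1.5 times, and rests on numbers that the samples only share. Exchanging the numbers of the injured Peri arrays, whose deviations correlated at -0.178 with those of the uninjured ones, gave 0 calls. With 2 or 3 arrays a group and dim probes for *C5ar1* and *C3ar1*, differences of the size of the intervals given could not be shown.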
